A study of Homo sapiens with 14 samples.

Results

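Interferon-stimulated genes are the genes that a cell switches on when it senses an interferon, and 35 of them were followed here in 22Rv1 cells, a human prostate cancer line, after loss or mutation of the pioneer transcription factor FOXA1. The 35 were taken by name, and all 35 were found in each of the 4 deposited count tables. A member was described in a table where its mean over that table's 4 libraries reached 0.5 CPM, where CPM is the usual scaling of a gene count by the total of its library and takes no account of gene length. That left 25 members in the knockdown table, 26 in the 1 h table, 27 in the 24 h table and 25 in the R219S table, out of 57904, 57905, 57905 and 20243 features. Described in all tables were 23 members. IFI27, IFI44, IFIT1, IFIT2, MX2 and OAS1 were described in some tables, and IFI44L, IFIT3, OAS2, OASL, SAMD9 and TRIM22 in none. The values at the edge were close. In the knockdown table IFI27 was just inside at 0.618 CPM and IFIT2 just outside at 0.443 CPM, and in the 1 h table IFIT2 was inside at 0.570 CPM and IFI44L outside at 0.493 CPM. In the 24 h table IFI27 stood at 0.549 CPM and IFI44L at 0.401 CPM, and in the R219S table IFI27 stood on the limit itself and IFI44L at 0.367 CPM.

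The 14 RNA-seq libraries formed 7 groups of 2. Cells given a FOXA1 knockdown lentivirus (shFOXA1) were set against cells given a control lentivirus (shCtrl). Cells labelled FOXA1_dTAG, in which FOXA1 carries a tag that lets the small molecule dTAG send the protein for degradation, were sampled at 1 h and 24 h and set against 0 h. FOXA1_dTAG cells labelled R219S, a missense change in the DNA-binding forkhead domain, were set against FOXA1_dTAG cells labelled WT. The labels give dTAG or DMSO as the treatment of these last 5 groups without saying which the WT and R219S cells received, and they name no DMSO sample held for 24 h. The shCtrl titles read 22Rv2, while their cell line field reads 22Rv1. Nothing states that the 2 replicates of a group came from separate cultures, so p-values measure the spread between these libraries, which may be technical.

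Interferons bind receptors at the cell surface, and the Janus kinases on those receptors activate STAT proteins. Type I interferon signals through a complex that holds STAT2 and IRF9 and binds the interferon-stimulated response element (ISRE) in promoters, whereas interferon gamma signals through the GAS element. The genes switched on encode sensors of viral RNA, enzymes that destroy or stall it, the ubiquitin-like modifier ISG15, and membrane proteins that block virus entry or release. Epithelial cells express many of them at a low level without added interferon.

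Promoter windows are shown for 6 members, picked only among those with ISRE letters, that changed clearly or whose ISRE letters stand close together. The ISRE is the element through which genes of this family are known to respond. They run 5′ to 3′ on the gene's own strand and come from RefSeq (GRCh38.p14), with the ISRE core in capitals. The core was searched as GAAANNGAA on both strands, so a match on the other strand reads TTCNNTTTC, and overlapping matches were kept. The windows are chr1:27672272-27672357 on the minus strand for IFI6, chr12:112938324-112938473 on the plus strand for OAS3, chr4:88456989-88457059 on the plus strand for HERC5, chr15:88638936-88638966 on the plus strand for ISG20, chr19:17405740-17405770 on the minus strand for BST2, and chr1:1013377-1013412 on the plus strand for ISG15.
IFI6: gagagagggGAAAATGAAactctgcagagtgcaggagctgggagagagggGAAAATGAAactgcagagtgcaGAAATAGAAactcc
OAS3: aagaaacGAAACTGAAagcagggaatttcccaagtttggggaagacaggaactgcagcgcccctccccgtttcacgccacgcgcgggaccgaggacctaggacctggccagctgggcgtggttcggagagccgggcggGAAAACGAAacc
HERC5: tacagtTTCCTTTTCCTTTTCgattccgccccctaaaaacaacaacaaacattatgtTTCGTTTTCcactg
ISG20: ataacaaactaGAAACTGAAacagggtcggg
BST2: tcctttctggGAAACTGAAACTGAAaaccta
ISG15: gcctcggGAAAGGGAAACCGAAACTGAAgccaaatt

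A promoter window, 250 bases before to 50 bases after the start, was matched for 27 of the 35 members. The ISRE core stood in 20 of these 27 (74.1%), against 2264 of all 27305 windows (8.29%). It was not found in the windows of STAT2, HERC6, PARP9, IRF1, IRF9, IFI35 and OAS1, some of which changed clearly at 24 h. The GAS letters TTCNNNGAA stood in 8 of the 27 (29.6%), against 7.88% of all windows. The forkhead core TGTTTAC, a description of FOXA-type binding letters, stood in 0 of the 27, against 3.41% of all windows. With a share this low, 27 windows are too few to tell 0 matches from the share over all windows. A match of letters is not a binding site, and these short windows leave out enhancers. MX2, TRIM22, IFIT2, OASL, USP18, IRF7, IFITM2 and OAS2 are named only.

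Depth lay between 21560090 and 38465155 counts per library. FOXA1 RNA was 297 and 301 CPM in shFOXA1 cells, against 406 and 437 CPM in shCtrl cells, a log2 fold change of -0.47 ± 0.0622 (SE). FOXA1 RNA was 699 and 678 CPM in R219S cells, against 1021 and 1041 CPM in WT cells, a log2 fold change of -0.57 ± 0.0364 (adjusted p = 1.28e-45). At 24 h it was 207 and 199 CPM, against 169 and 166 CPM at 0 h (0.23 ± 0.039, adjusted p = 7.6e-06), and RNA does not report the protein, on which the degrader acts. Markers of prostate luminal epithelium were present in all libraries, with summed levels of 2256 to 8082 CPM over 9 genes. Summed leukocyte markers reached at most 4.24 CPM over 8 genes, and endothelial ones at most 0.405 CPM over 3. The 6 fibroblast markers summed to 231 and 238 CPM in R219S cells and to 218 and 211 CPM in WT cells, mostly LUM and DCN, against 16.9 to 20.3 CPM in the other 10 libraries. Luminal and fibroblast marker sums thus moved between tables more than within them, and their part in the results was not tested. In bulk RNA, fewer expressing cells and less RNA per cell cannot be told apart.

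**Figure D1:**
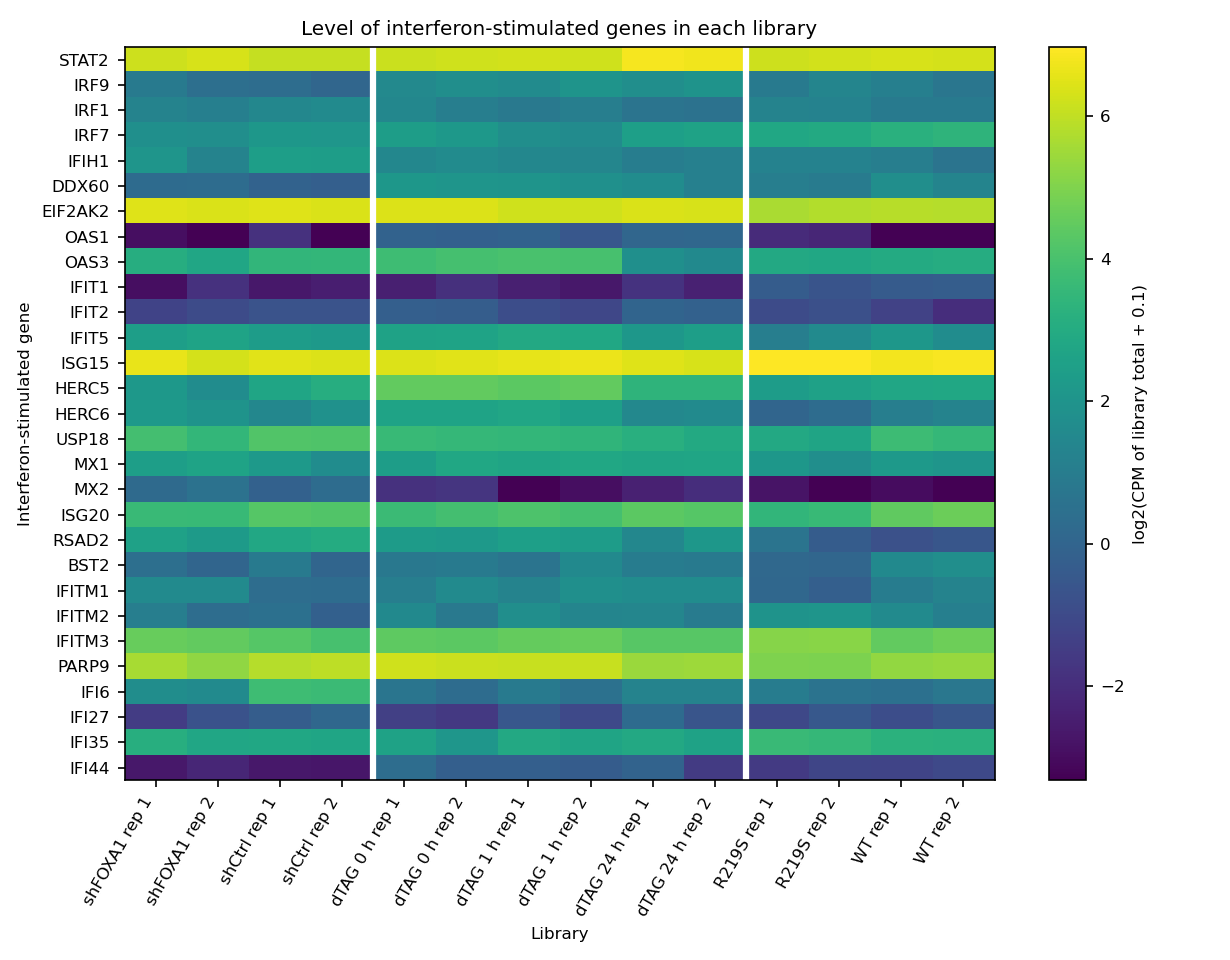
Level of each described member (rows, by role) in each of the 14 libraries (columns), as log2(CPM + 0.1), with white lines between the 3 sets of libraries. HERC5 and OAS3 are darker in both 24 h libraries than at 0 h and 1 h, and IFI6 is brightest in both shCtrl libraries.

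The knockdown comparison shows which members differed between shFOXA1 and shCtrl cells, and the sample labels give no time for it. IFI6, a small membrane protein with antiviral activity, fell to 3.18 and 2.93 CPM in shFOXA1 cells, against 13.4 and 12.9 CPM in shCtrl cells. HERC5, the main human ligase for ISG15, ISG20, an exonuclease that degrades viral RNA, and OAS3, which makes the 2′-5′ oligoadenylates that activate RNase L, also fell. IFITM1, which blocks virus entry at the cell surface, rose to more than 2-fold its shCtrl level. Of the 25 described members, 8 were called lower, 4 were called higher and 13 were not called, where a call is an adjusted p under 0.05 in edgeR's quasi-likelihood test. That is 48% called, beside 23.6% of all genes tested (11.3% higher, 12.3% lower). The median log2 fold change was 0.01 over the 25 described members and -0.25 over the 27 members tested, beside 0.01 over all genes tested. The level rule kept only members with counts, so this share describes them and is not a test.

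Among the regulators, STAT2 had 73.5 and 80.8 CPM in shFOXA1 cells, against 67.4 and 66.7 CPM in shCtrl cells (log2 fold change 0.23 ± 0.0696, adjusted p = 0.0308). IRF9, the DNA-binding partner of STAT2, was not called, with 1.80 and 1.26 CPM in shFOXA1 cells against 1.20 and 0.958 CPM in shCtrl cells (0.54 ± 0.301, adjusted p = 0.224). Both genes were higher in each shFOXA1 library than in either shCtrl library, as were 29.1% of all genes tested. IFIH1, the sensor MDA5 of long double-stranded RNA, had 4.04 and 2.35 CPM in shFOXA1 cells, against 5.37 and 5.26 CPM in shCtrl cells (-0.71 ± 0.23, adjusted p = 0.0446). DDX60, a helicase linked to RNA sensing, was not called at 1.12 and 1.14 CPM in shFOXA1 cells against 0.846 and 0.766 CPM in shCtrl cells (0.51 ± 0.323, adjusted p = 0.282).

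OAS3 had 8.45 and 6.78 CPM in shFOXA1 cells, against 11.0 and 11.2 CPM in shCtrl cells (-0.52 ± 0.14, adjusted p = 0.0184). OASL, an OAS relative without enzyme activity, lay below the level rule and had 4 and 8 counts in shFOXA1 cells against 16 and 27 counts in shCtrl cells (-1.75 ± 0.559, adjusted p = 0.039). Both OAS genes were lower in each shFOXA1 library than in either shCtrl library, as were 34.7% of all genes tested. HERC5 had 4.35 and 3.14 CPM in shFOXA1 cells, against 6.57 and 8.35 CPM in shCtrl cells (-0.97 ± 0.194, adjusted p = 0.0039). The other called ISG15-system member was USP18, which removes ISG15 from proteins and restrains the type I receptor (-0.41 ± 0.126, adjusted p = 0.0331), while ISG15 itself was not called (0.02 ± 0.0971, adjusted p = 0.894).

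ISG20 had 12.4 and 12.3 CPM in shFOXA1 cells, against 19.1 and 17.9 CPM in shCtrl cells (-0.56 ± 0.104, adjusted p = 0.00241). RSAD2, or viperin, which makes a chain-terminating nucleotide, had 5.82 and 4.75 CPM in shFOXA1 cells, against 7.15 and 7.94 CPM in shCtrl cells (-0.49 ± 0.159, adjusted p = 0.042). MX1, a dynamin-like GTPase that traps viral capsids, went the other way, with 5.41 and 6.22 CPM in shFOXA1 cells against 4.46 and 3.15 CPM in shCtrl cells (0.64 ± 0.195, adjusted p = 0.0318). The groups did not overlap for these 3 restriction factors, which held for 63.7% of all genes tested. IFITM1 had 2.95 and 2.96 CPM in shFOXA1 cells, against 1.17 and 1.15 CPM in shCtrl cells (1.38 ± 0.234, adjusted p = 0.00138). IFITM3, which acts in endosomes, had 23.7 and 22.4 CPM in shFOXA1 cells, against 18.9 and 15.5 CPM in shCtrl cells (0.45 ± 0.109, adjusted p = 0.0105). IFITM2, a close copy of IFITM3, was not called at 2.03 and 1.17 CPM in shFOXA1 cells against 1.28 and 0.794 CPM in shCtrl cells (0.66 ± 0.346, adjusted p = 0.198), and its groups overlapped. IFI6 had the largest change among members called (-2.08 ± 0.145, adjusted p = 4.68e-06), and PARP9, which works with the ubiquitin ligase DTX3L, the smallest of the decreases (-0.39 ± 0.109, adjusted p = 0.0329). Among described members not called, IFI27 had the largest change (-1.15 ± 0.443, adjusted p = 0.0795). It had 9 and 17 counts in shFOXA1 cells, against 25 and 36 counts in shCtrl cells.

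IFI6, HERC5, ISG20 and IFITM1 kept their calls under every setting run. Without shCtrl replicate 2 the adjusted p rose to 0.225 for STAT2, 0.15 for IFIH1, 0.133 for OAS3, 0.372 for OASL, 0.145 for USP18, 0.344 for MX1, 0.31 for RSAD2, 0.198 for IFITM3 and 0.172 for PARP9, leaving 4 members called. Without shCtrl replicate 1 it was 0.178 for STAT2, 0.134 for IFIH1, 0.0772 for OAS3, 0.0732 for OASL, 0.133 for USP18 and 0.0979 for RSAD2, leaving 7. Without shFOXA1 replicate 2 it was 0.0506 for STAT2, 0.17 for IFIH1, 0.11 for USP18 and 0.116 for RSAD2, while ISG15 (0.0145), HERC6 (0.0394) and IFITM2 (0.0163) gained a call as higher and IFI27 (0.0225) as lower, giving 6 higher and 7 lower of the members tested. Over all genes tested, too, fewer calls were made when a shCtrl library was left out, and more when a shFOXA1 library was left out. The 2 shFOXA1 libraries differed more than other replicate pairs, with a chi-square per degree of freedom of 11.8, against 2.04 to 4.04 in the other 6 groups. Without shFOXA1 replicate 1 the adjusted p was 0.144 for OASL. DESeq2 gave 0.0634 for STAT2, 0.055 for IFIH1, 0.0556 for MX1 and 0.0864 for RSAD2, and no adjusted p for OASL. The replicate block gave 0.0518 for RSAD2.

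After 1 h with the degrader few members had moved. IRF7, a factor that amplifies type I interferon production, and EIF2AK2, the kinase PKR that stops translation when it binds double-stranded RNA, fell. ISG15 and IFI35, a partner of NMI, rose slightly. Of the 26 described members, 2 were called lower, 2 were called higher and 22 were not called, which is 15.4% and below the 19.8% of all genes tested (10.7% higher, 9.12% lower). The median log2 fold change was 0.09 over the described members and 0.00 over all genes tested.

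IRF7 had 3.31 and 3.06 CPM at 1 h, against 5.16 and 4.39 CPM at 0 h (-0.59 ± 0.173, adjusted p = 0.00834). EIF2AK2 had 75.8 and 75.4 CPM at 1 h, against 85.6 and 85.8 CPM at 0 h (-0.18 ± 0.0418, adjusted p = 0.000431). Both were lower in each 1 h library than in either 0 h library, as were 27.2% of all genes tested. ISG15 had 96.3 and 101 CPM at 1 h, against 86.3 and 91.3 CPM at 0 h (0.15 ± 0.0403, adjusted p = 0.00423). IFI35 had 7.40 and 6.29 CPM at 1 h, against 6.07 and 4.14 CPM at 0 h (0.42 ± 0.147, adjusted p = 0.0306). Both were higher at 1 h without overlap, as were 29.3% of all genes tested, and the nearest IFI35 values were close. IFIT2, which binds viral RNA and blocks its translation, was not called at 0.439 and 0.352 CPM at 1 h against 0.758 and 0.732 CPM at 0 h (-0.91 ± 0.451, adjusted p = 0.159). EIF2AK2 kept its call under every setting run. IRF7 lost it without 0 h replicate 1 (adjusted p = 0.139), without 1 h replicate 2 (0.0648) and in DESeq2 (0.0727), ISG15 without 0 h replicate 1 (0.064), without 1 h replicate 2 (0.206) and in DESeq2 (0.0566), and IFI35 without 0 h replicate 2 (0.578), without 1 h replicate 1 (0.277) and in DESeq2 (0.194).

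At 24 h with the degrader OAS3 fell most, with 4.71-fold lower levels than at 0 h. The ISG15 ligase HERC5, its relative HERC6 and the deconjugating enzyme USP18 fell with PARP9. The RNA sensors DDX60 and IFIH1 and the factor IRF1 also fell. STAT2, ISG20, IFI6 and IFI27 rose, while ISG15, EIF2AK2, MX1, BST2 and the IFITM genes were not called. IFI27 passed the level rule only through its 24 h libraries, with group means of 0.84 CPM at 24 h and 0.258 CPM at 0 h. Its place among the described members called higher is therefore not independent of that rule. Of the 27 described members, 10 were called lower, 4 were called higher and 13 were not called, which is 51.9% and near the 46.9% of all genes tested (22.1% higher, 24.8% lower). The median log2 fold change was -0.10 over the described members and 0.01 over all genes tested.

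**Figure D2:**
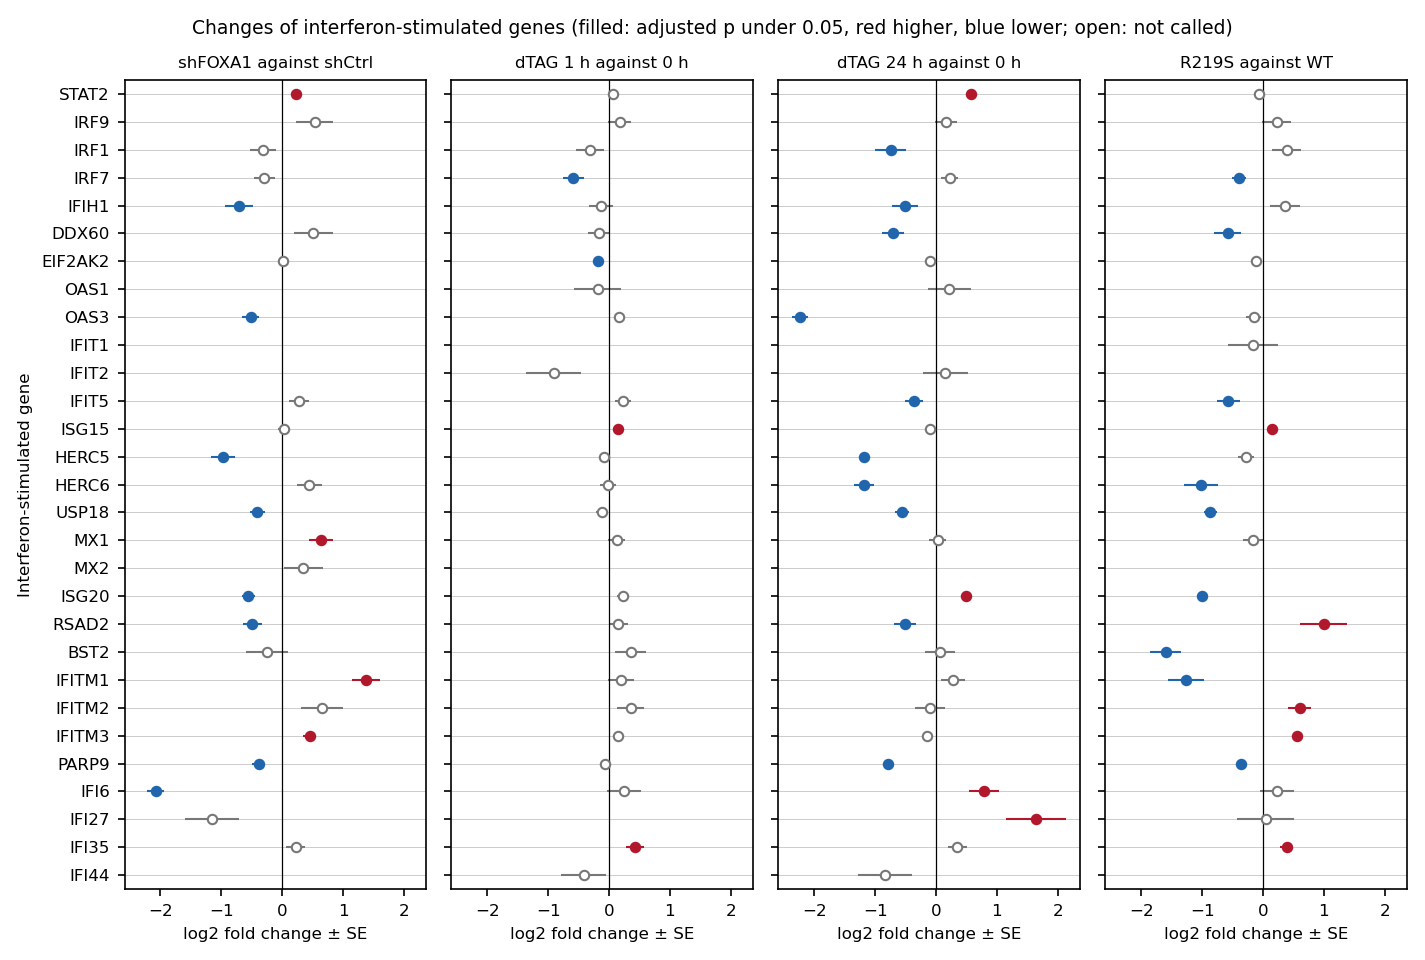
Log2 fold change with its SE for each described member (rows, by role) in the 4 comparisons (panels), with red points called higher, blue points called lower and open points not called. OAS3 reaches -2.24 at 24 h and is near 0 at 1 h, and IFI6 lies at -2.08 after knockdown but at 0.79 at 24 h.

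STAT2 had 114 and 108 CPM at 24 h, against 70.3 and 74.5 CPM at 0 h (0.57 ± 0.0467, adjusted p = 7.3e-12). IRF1, an activator induced by interferon gamma, had 1.47 and 1.36 CPM at 24 h, against 2.60 and 2.03 CPM at 0 h (-0.75 ± 0.248, adjusted p = 0.0132). DDX60 had 3.08 and 2.14 CPM at 24 h, against 4.26 and 4.02 CPM at 0 h (-0.71 ± 0.188, adjusted p = 0.00241). For each of these 3 the 24 h and 0 h libraries did not overlap, which held for 71.8% of all genes tested. OAS3 had 3.37 and 2.85 CPM at 24 h, against 13.4 and 15.0 CPM at 0 h (-2.24 ± 0.13, adjusted p = 2.23e-15). At 1 h OAS3 had stood at 16.2 and 15.8 CPM and was not called, so its decrease fell between 1 h and 24 h.

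HERC5 had 10.3 CPM in each 24 h library, against 22.8 and 22.6 CPM at 0 h (-1.19 ± 0.0875, adjusted p = 7.12e-13). HERC6, a relative of HERC5 that is the main ISG15 ligase in mouse, had 2.68 and 2.92 CPM at 24 h, against 6.21 and 6.13 CPM at 0 h (-1.18 ± 0.158, adjusted p = 1.97e-07). USP18 had 9.01 and 7.47 CPM at 24 h, against 12.2 and 11.3 CPM at 0 h (-0.56 ± 0.112, adjusted p = 0.000105). These 3 genes, which act on ISG15 or are related to its ligase, were lower in each 24 h library than in either 0 h library, as were 32.2% of all genes tested. ISG15 itself was not called, with 89.2 and 81.8 CPM at 24 h against 86.3 and 91.3 CPM at 0 h (-0.10 ± 0.0483, adjusted p = 0.0971). PARP9 had 42.9 and 44.0 CPM at 24 h, against 74.5 and 70.8 CPM at 0 h (-0.79 ± 0.0519, adjusted p = 5.08e-14).

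IFI6 had 2.34 and 2.36 CPM at 24 h, against 1.49 and 1.15 CPM at 0 h (0.79 ± 0.249, adjusted p = 0.00953). IFI27, a mitochondrial membrane protein widely used as a marker of interferon exposure, had 36 and 18 counts at 24 h, against 10 and 8 counts at 0 h (1.65 ± 0.496, adjusted p = 0.00661). Both were higher in each 24 h library than in either 0 h library, as were 39.6% of all genes tested, and both had few counts. ISG20, given here after its values were seen, had 20.9 and 19.2 CPM at 24 h, against 12.8 and 14.7 CPM at 0 h (0.50 ± 0.0897, adjusted p = 2.5e-05). The other called members were RSAD2 (-0.51), IFIH1 (-0.50) and IFIT5 (-0.36), an RNA-binding relative of IFIT2. IFI44, of unsettled function, was not called at 0.873 and 0.248 CPM at 24 h against 1.20 and 0.760 CPM at 0 h (-0.84 ± 0.44, adjusted p = 0.122).

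OAS3, HERC5, HERC6, USP18, PARP9, STAT2 and ISG20 kept their calls at 24 h under every setting run. Without 0 h replicate 1 the adjusted p was 0.142 for IRF1 and 0.0542 for IFIT5, and without 0 h replicate 2 it was 0.249 for IFIH1, 0.144 for IFIT5, 0.0951 for IFI6 and 0.0612 for IFI27. Without 24 h replicate 1 it was 0.18 for IFIH1, 0.358 for IFIT5, 0.4 for RSAD2 and 0.309 for IFI27, and without 24 h replicate 2 it was 0.0524 for IRF1, 0.0698 for IFIH1 and 0.0745 for DDX60. DESeq2 gave 0.0851 for IRF1, 0.206 for IFIH1, 0.181 for IFIT5, 0.112 for RSAD2 and 0.0665 for IFI6. IFIH1 also lost its call with RLE size factors (0.0506) and without the count filter (0.0742). The replicate block added calls for EIF2AK2 (0.0325) and ISG15 (0.0309) as lower and for IFI35 (0.0235) as higher. ISG15 was also called lower without 0 h replicate 1 (log2 fold change -0.14) or without 24 h replicate 1 (-0.16).

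**Figure D3:**
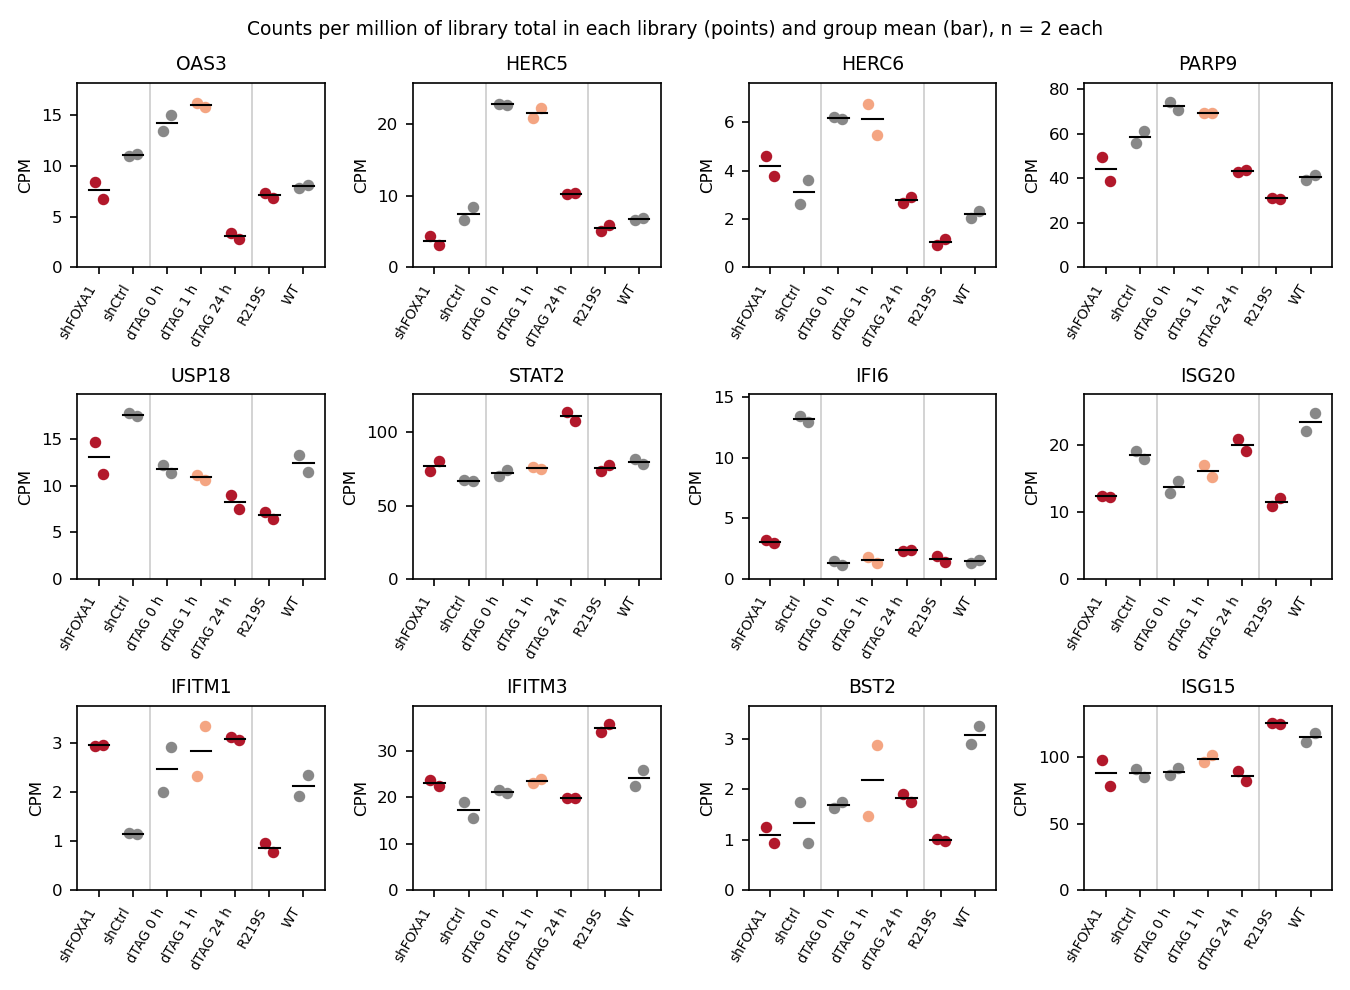
CPM of library total for 12 members in each library (points, n = 2 per group) with the group mean (bar), each axis starting at 0. OAS3, HERC5, HERC6 and PARP9 drop in the 24 h libraries after holding their level at 1 h, and ISG20 is lower in shFOXA1 and R219S cells than in their controls but higher at 24 h than at 0 h.

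The 24 h libraries were also set against the 1 h ones in a fit of all 6 dTAG libraries, which share the 24 h samples with the comparison above. Of 28 members tested, 10 were called lower and 4 higher, beside 45.7% of all genes tested called, and the median log2 fold change was -0.29 over the members and 0.00 over all genes. OAS3 (-2.40 ± 0.121), HERC6 (-1.17 ± 0.16) and PARP9 (-0.72 ± 0.0491) were lower at 24 h than at 1 h. ISG15, higher at 1 h and not called at 24 h against 0 h, was also lower (-0.25 ± 0.0443, adjusted p = 6.56e-06). It kept this call under every setting run. IRF7 had 5.55 and 5.92 CPM at 24 h, against 3.31 and 3.06 CPM at 1 h (0.81 ± 0.159, adjusted p = 3.19e-05). Its decrease at 1 h was thus not kept, and the 24 h libraries did not overlap with the 1 h ones, as 71.1% of all genes tested did not (38.9% with higher values at 24 h). IFIT2 had 0.904 and 0.806 CPM at 24 h, against 0.439 and 0.352 CPM at 1 h (1.06 ± 0.431, adjusted p = 0.0395). That IFIT2 call was lost without 1 h replicate 1 (adjusted p = 0.0749), 1 h replicate 2 (0.176), 24 h replicate 1 (0.161) or 24 h replicate 2 (0.0801), and in DESeq2 (0.11).

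In R219S cells BST2, or tetherin, which holds budding virions at the cell surface, was 3.03-fold lower than in WT cells, and IFITM1, HERC6, ISG20 and USP18 were also lower in R219S cells. IFITM3, IFITM2 and IFI35 were higher. OAS3 and HERC5, which fell at 24 h, were not called here. Of the 25 described members, 9 were called lower, 5 were called higher and 11 were not called, which is 56% and below the 62.1% of all genes tested (30.5% higher, 31.6% lower). The median log2 fold change was -0.15 over the described members and 0.00 over all genes tested.

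BST2 had 1.02 and 0.968 CPM in R219S cells, against 2.89 and 3.26 CPM in WT cells (-1.60 ± 0.257, adjusted p = 3.61e-09). IFITM1 had 0.974 and 0.774 CPM in R219S cells, against 1.92 and 2.35 CPM in WT cells (-1.26 ± 0.294, adjusted p = 5.6e-05). ISG20 had 10.9 and 12.2 CPM in R219S cells, against 22.1 and 24.8 CPM in WT cells (-0.99 ± 0.0868, adjusted p = 8.06e-27). These 3 restriction factors were lower in each R219S library than in either WT library, as were 41.5% of all genes tested. IFITM2 had 3.76 and 4.03 CPM in R219S cells, against 2.96 and 2.08 CPM in WT cells (0.61 ± 0.189, adjusted p = 0.00285). IFITM3, named beside IFITM2 after its values were seen, had 33.9 and 35.6 CPM in R219S cells, against 22.4 and 25.9 CPM in WT cells (0.56 ± 0.0696, adjusted p = 3.73e-14). IFITM2 and IFITM3 were higher in each R219S library than in either WT library, as were 37.8% of all genes tested. IFITM1 and these 2 relatives were called in opposite directions, and reads from IFITM2 and IFITM3 may have been split between these near-identical copies. IFITM1 and IFITM2 also share exonic bases on the same strand in GENCODE 29, and the part of this overlap in the contrast was not tested. RSAD2 had 31 and 18 counts in R219S cells, against 19 and 15 counts in WT cells (1.00 ± 0.387, adjusted p = 0.0183), and its counts overlapped before scaling to library size.

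HERC6 had 0.928 and 1.16 CPM in R219S cells, against 2.03 and 2.35 CPM in WT cells (-1.02 ± 0.279, adjusted p = 0.00063). USP18 had 7.24 and 6.43 CPM in R219S cells, against 13.4 and 11.5 CPM in WT cells (-0.86 ± 0.111, adjusted p = 2.02e-13). Both were lower in each R219S library than in either WT library, as were 41.5% of all genes tested. ISG15 was slightly higher in R219S cells (0.15 ± 0.044, adjusted p = 0.00206). OASL had 1 and 4 counts in R219S cells, against 21 and 11 counts in WT cells (-2.16 ± 0.692, adjusted p = 0.00383). DDX60 had 1.99 and 1.86 CPM in R219S cells, against 3.30 and 2.39 CPM in WT cells (-0.58 ± 0.22, adjusted p = 0.0156). IFIT5 had 2.04 and 2.94 CPM in R219S cells, against 4.32 and 3.10 CPM in WT cells (-0.57 ± 0.193, adjusted p = 0.0065). The groups did not overlap for these 3, which held for 79.3% of all genes tested, and the nearest IFIT5 values were close. The other called members were IRF7 (-0.39 ± 0.116), PARP9 (-0.36 ± 0.065) and IFI35 (0.39 ± 0.104).

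BST2, IFITM1, IFITM3, ISG20, HERC6, USP18, IRF7, PARP9 and IFI35 kept their R219S calls under every setting run. Without WT replicate 1 the adjusted p was 0.432 for DDX60, 0.0853 for OASL, 0.375 for IFIT5, 0.0895 for ISG15 and 0.141 for RSAD2, and without WT replicate 2 it was 0.0514 for RSAD2 and 0.107 for IFITM2. Without R219S replicate 1 it was 0.0947 for OASL, 0.179 for IFIT5 and 0.538 for RSAD2, and without R219S replicate 2 it was 0.0989 for DDX60. DESeq2 gave 0.161 for DDX60, 0.0693 for OASL, 0.121 for IFIT5, 0.143 for RSAD2 and 0.0615 for IFITM2.

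Across the 3 comparisons with controls of their own (knockdown, 24 h and R219S), PARP9 and USP18 were called lower in all 3. Of the 25 members tested in all 3 these are 8.00%, beside 4.85% of the 12301 genes tested in all 3. Called lower in exactly 2, and not higher in the other, were DDX60, HERC5, HERC6, IFIH1, IFIT5, OAS3 and OASL, the last not tested at 24 h. The other 6 are 24% of the members tested in all 3, beside 11.7% of genes. IFITM3 and STAT2 were called higher in 2 (8.00%, beside 9.65%), and IFI6, IFITM1, ISG20 and RSAD2 were called in both directions (16.0%, beside 20.6%). A further 8 members were called in 1 comparison (32.0%, beside 34.6%). No call was made for EIF2AK2, IFIT2 and IRF9, which were tested in all 3 (12.0%, beside 15.1%), for IFI44L, tested in 2, or for IFI44, IFIT1, MX2 and OAS1, tested in 1. IFIT3, OAS2, SAMD9 and TRIM22 had too few counts to be tested in any. These shares describe members chosen with results known. PARP9 and DTX3L share exonic bases on opposite strands in GENCODE 29, as RSAD2 and CMPK2 do, and whether counting used strand is not given in the sources used here. An exonic overlap with another gene, on the same or the opposite strand, was annotated for 13 of the 35 members.

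The difference between the 24 h change and the knockdown change was tested directly in a joint fit. It was called for 11 of 30 members tested, 7 with a lower change at 24 h and 4 with a higher one, beside 22.7% of all genes tested (9.45% higher, 13.2% lower). OAS3 fell by more at 24 h (difference of log2 fold changes -1.71 ± 0.196, adjusted p = 1.62e-06), and HERC6, not called after knockdown, was lower at 24 h (-1.62 ± 0.26, adjusted p = 9.26e-05). IFI6 went opposite ways, higher at 24 h and lower after knockdown (2.88 ± 0.256, adjusted p = 5.1e-08), as did ISG20 (1.07 ± 0.141, adjusted p = 9.37e-06). The starting levels of IFI6 differed too. In the separately deposited tables it had 13.4 and 12.9 CPM in shCtrl cells, 1.49 and 1.15 CPM at 0 h and 1.30 and 1.59 CPM in WT cells. HERC5 had 6.57 and 8.35 CPM in shCtrl cells, 22.8 and 22.6 CPM at 0 h and 6.66 and 6.82 CPM in WT cells. These control levels stand side by side as values only.

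The R219S change and the 24 h change also differed, for 15 of 31 members tested, 9 higher and 6 lower in R219S, beside 56.0% of all genes tested (30.0% higher, 26.0% lower). Among members described in both tables, OAS3 had the highest R219S change relative to 24 h (2.08 ± 0.183, adjusted p = 4.39e-17), and IRF1 (1.13 ± 0.348, adjusted p = 0.00395) and HERC5 (0.90 ± 0.161, adjusted p = 1.44e-06) also lay higher, with calls kept under every setting run. BST2 (-1.67 ± 0.366, adjusted p = 6.09e-05) and ISG20 (-1.50 ± 0.127, adjusted p = 6.1e-18) had the lower change in R219S cells. HERC6, USP18, DDX60 and IFIT5 were lower in both comparisons, and no difference between the changes was called for them in the main fit. For USP18 a lower change in R219S was called without WT replicate 2 (-0.42) or without 24 h replicate 2 (-0.46).

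**Figure D4:**
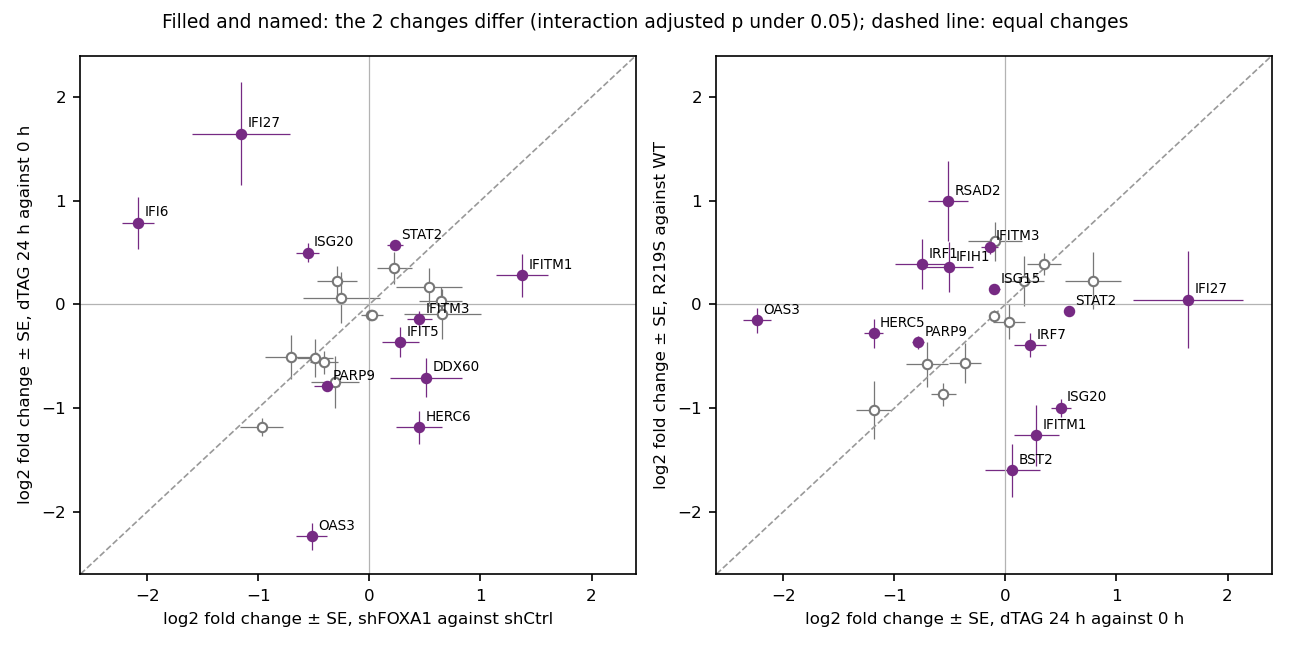
Left, log2 fold change at 24 h against that after knockdown, and right, log2 fold change in R219S cells against that at 24 h, for members described in both tables, with SE bars and a dashed line of equal change. Filled, named points differ by the joint fit: IFI6 and ISG20 lie in opposite directions on the left, and OAS3 lies far from the line on the right.

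The rest of the pathway was followed in 78 listed genes outside the members. The 9 interferon genes among them gave 19 counts in all over the 14 libraries and at most 3 in any library, so none was tested. Of the others, 10 were called higher and 4 lower of 50 tested after knockdown, which is 28%, beside 23.6% of all genes. At 1 h 4 were higher and 7 lower of 58 tested, which is 19%, beside 19.8% of all genes. At 24 h 26 were higher and 10 lower of 57 tested, and in R219S cells 20 were higher and 16 lower of 55 tested. At 24 h that is 63.2% of those tested, with a median log2 fold change of 0.26, beside 46.9% and 0.01 for all genes. In R219S cells it is 65.5%, beside 62.1% of all genes.

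After knockdown, higher genes included SOCS3, a brake on cytokine receptors (0.93), PARP10 (0.64), the helicase MOV10 (0.62), PIAS1, an inhibitor of cytokine signalling (0.62), and IRF2, which competes with IRF1 (0.52). SAMHD1, which depletes nucleotides (-0.58), TDRD7 (-0.52), the kinase TBK1 (-0.34) and the receptor chain IFNAR1 (-0.20) were lower. MOV10, SAMHD1 and TBK1 kept their calls when any library was left out. With shCtrl replicate 1 left out, adjusted p stood at 0.121 for SOCS3, 0.0704 for PARP10, 0.0567 for PIAS1, 0.0724 for TDRD7 and 0.157 for IFNAR1. Without shCtrl replicate 2 it was 0.242 for SOCS3, 0.273 for PARP10, 0.0878 for IRF2, 0.167 for TDRD7 and 0.339 for IFNAR1, and without shFOXA1 replicate 2 it was 0.0972 for SOCS3. At 1 h GBP1, a guanylate-binding protein induced by interferon gamma, had 0.731 and 0.735 CPM, against 1.60 and 1.66 CPM at 0 h (-1.16 ± 0.31, adjusted p = 0.00396). RNF213 was also lower at 1 h (-0.26 ± 0.048, adjusted p = 1.28e-05), and both held when any library was left out. Of the other genes called at 1 h, MAVS (-0.17) and ZC3HAV1 were lower, and both calls were lost without 1 h replicate 1 (-0.14 each). GBP2 (-0.67), ZNFX1 (-0.19) and DTX3L (-0.18) were also lower, while SOCS3 (0.84), TREX1 (0.24), IRF2 (0.24) and MOV10 (0.15) were higher. Their calls were lost without 0 h replicate 1 for GBP2 (adjusted p = 0.195), SOCS3 (0.187) and ZNFX1 (0.0914), without 0 h replicate 2 for IRF2 (0.353) and TREX1 (0.0983), and without 1 h replicate 1 for MOV10 (0.184). Leaving out 1 h replicate 2 ended those of GBP2 (0.198), SOCS3 (0.415), ZNFX1 (0.149), IRF2 (0.327) and DTX3L (0.0504).

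At 24 h, 5 of the 9 receptors and kinases were called higher and none lower, beside 22.1% of all genes tested called higher and 24.8% lower. The interferon gamma receptor chain IFNGR1 had 102 and 109 CPM at 24 h, against 52.7 and 54.7 CPM at 0 h (0.93 ± 0.048, adjusted p = 1.31e-16). The kinases JAK2 (0.67 ± 0.067) and JAK1 (0.65 ± 0.078), named after their values were seen, rose as well, and IFNGR2 (0.29 ± 0.079) and TYK2 (0.12 ± 0.044) rose less. Negative regulators were called higher for 6 of 8 tested and lower for 1, beside the same shares of all genes, and among them were SOCS1 (1.78 ± 0.56) and SOCS3 (1.07 ± 0.28). GBP2 (1.24 ± 0.16) and CD274, the immune checkpoint ligand PD-L1 (1.15 ± 0.34), were also higher. TLR3, the endosomal receptor of double-stranded RNA (-1.40 ± 0.28), TRIM14 (-0.77 ± 0.056), NT5C3A (-0.48 ± 0.068), DTX3L (-0.37 ± 0.048) and GBP1 (-0.80 ± 0.29) were lower. SOCS1 was lost without 0 h replicate 1 (adjusted p = 0.122), CD274 without 24 h replicate 2 (0.0753), IFNGR2 without 24 h replicate 2 (0.123), TYK2 without 0 h replicate 1 (0.177), 24 h replicate 1 (0.0863) or 24 h replicate 2 (0.0631), and GBP1 without 0 h replicate 1 (0.0503), 0 h replicate 2 (0.0897) or 24 h replicate 1 (0.193). DESeq2 also ended the SOCS1 (0.406), GBP1 (0.13) and TYK2 (0.0727) calls.

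In R219S cells CD274 had 20.7 and 18.7 CPM, against 2.05 and 2.04 CPM in WT cells (3.27 ± 0.13, adjusted p = 9.34e-101). LGALS3BP, a secreted glycoprotein (3.16 ± 0.13), NMI, the partner of IFI35 (2.50 ± 0.5), SOCS1 (2.10 ± 0.36) and IFNGR1 (1.29 ± 0.056) were also higher. EPSTI1 (-1.76 ± 0.51), SOCS3 (-0.79 ± 0.22), the receptor chains IFNGR2 (-0.67 ± 0.075) and IFNAR2 (-0.58 ± 0.12), and TRIM21 (-0.56 ± 0.17) were lower in R219S cells, and TRIM21 lost its call without R219S replicate 1 (adjusted p = 0.162). Receptors and kinases were split, with 3 higher and 3 lower of 9 tested, beside 30.5% and 31.6% of all genes.

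**Figure D5:**
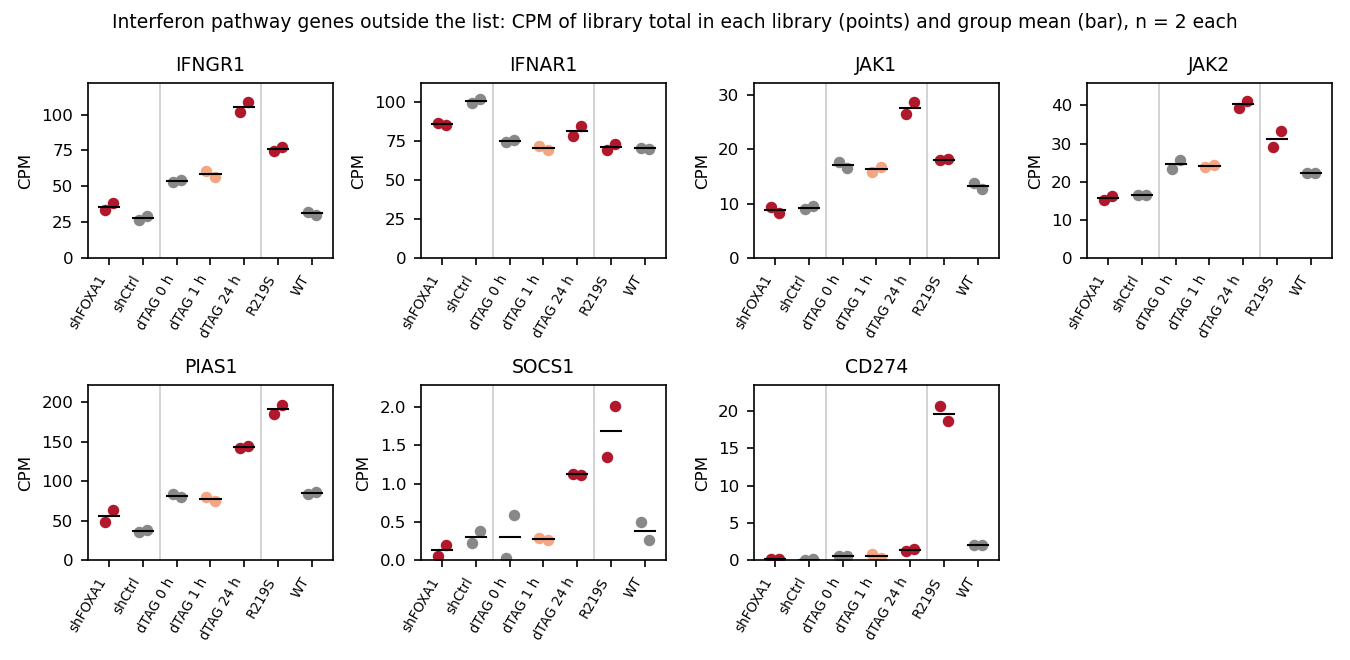
CPM of library total for 7 interferon pathway genes outside the member list in each library (points, n = 2 per group) with the group mean (bar), each axis starting at 0. IFNGR1, JAK1 and JAK2 are highest in the 24 h libraries, and CD274 is near 20 CPM in R219S cells and at or under 2.05 CPM elsewhere.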

How the data were processed

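RNA-seq counts per gene were deposited by the authors as 4 tables of raw counts, one per comparison. STAR, featureCounts, DESeq2 and the build hg19 are named per the submitters' processing notes, without versions. The 0 h counts were identical in both dTAG tables. Ensembl IDs were matched to symbols in the knockdown and dTAG tables, and the R219S table uses symbols, of which 26 had turned into dates. Members and gene lists were chosen with earlier results of these data known.

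Levels are CPM of the library total. Each table was fitted whole by the robust quasi-likelihood F test of edgeR (version 4.0.16, R 4.3.3). Genes were kept by filterByExpr, libraries were scaled by TMM, p-values were two-sided and Benjamini-Hochberg adjusted over all genes tested, and calls needed an adjusted p under 0.05. Values after ± are SEs of log2 fold changes. Differences between changes were interaction contrasts over 57904 features joined by ID (24 h and knockdown) or 17601 joined by symbol (R219S and 24 h). Per comparison, library values were given for the 10 called members with the largest log2 fold change. They were also given for up to 3 uncalled members past 0.5, those highest in mean CPM, and for IFI27 after knockdown. Pathway genes were given for up to 5 called in each direction. Alternatives were RLE size factors, DESeq2 1.42.0, other filters, a replicate block, a joint dTAG fit and leaving out each library. Replicate pairs of a group differed by more than counting noise, with chi-square per degree of freedom of 2.04 to 4.04 in 6 groups and 11.8 in shFOXA1. No genome of the files' build was used.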

Additional observations from a re-analysis of the deposited data

Results flagged for a closer look

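The joint fits called a difference between changes in separate comparisons for 25 values of members described in both tables (edgeR's quasi-likelihood test, adjusted p under 0.05). Between the 24 h change and the knockdown change, the difference of log2 fold changes was -1.71 for OAS3, -1.62 for HERC6, -1.21 for DDX60, -1.08 for IFITM1, -0.63 for IFIT5, -0.58 for IFITM3 and -0.39 for PARP9, where the 24 h change was the lower. It was 0.35 for STAT2, 1.07 for ISG20, 2.81 for IFI27 and 2.88 for IFI6, where the 24 h change was the higher. IFI27 passed the level rule only through shCtrl cells (mean 0.858 CPM, against 0.378 CPM in shFOXA1 cells) and through 24 h (0.84 CPM, against 0.258 CPM at 0 h). Its difference is therefore not independent of that rule. The OAS3, HERC6, IFITM3, STAT2, ISG20 and IFI6 differences kept their call under every setting run. PARP9 lost it without any single library but shFOXA1 replicate 2, with adjusted p up to 0.16, and IFIT5 without any but shFOXA1 replicate 1 or 24 h replicate 2, with adjusted p up to 0.226. DESeq2 gave 0.11 for IFIT5, 0.0512 for IFITM1 and no adjusted p for IFI27. RLE size factors gave 0.0518 for IFIT5 and 0.0521 for PARP9. IFITM1 lost it without shCtrl replicate 1 (0.0557), shCtrl replicate 2 (0.0646), 0 h replicate 2 (0.146), 24 h replicate 1 (0.0548) or 24 h replicate 2 (0.0611), DDX60 without shCtrl replicate 2 (0.0789), 0 h replicate 1 (0.0577) or 24 h replicate 2 (0.0929), and IFI27 without 24 h replicate 1 (0.0658).

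Between the R219S change and the 24 h change, the difference was -1.67 for BST2, -1.61 for IFI27, -1.55 for IFITM1, -1.50 for ISG20, -0.65 for STAT2 and -0.62 for IRF7, where the R219S change was the lower. It was 0.24 for ISG15, 0.41 for PARP9, 0.69 for IFITM3, 0.86 for IFIH1, 0.90 for HERC5, 1.13 for IRF1, 1.50 for RSAD2 and 2.08 for OAS3, where the R219S change was the higher. OAS1, the remaining member called, had 0 counts in WT cells, so its difference has no size. RSAD2 lost the call without R219S replicate 1 (adjusted p = 0.15). IFIH1 lost it without WT replicate 2 (0.123), R219S replicate 1 (0.052), R219S replicate 2 (0.0576), 0 h replicate 2 (0.0796) or 24 h replicate 1 (0.0632). IFI27 lost it without WT replicate 1 (0.063), WT replicate 2 (0.129), R219S replicate 1 (0.148), 0 h replicate 1 (0.0504), 0 h replicate 2 (0.114) or 24 h replicate 1 (0.292). DESeq2 gave 0.08 for IFIH1 and 0.116 for IFI27. At 24 h IFI27 passed the level rule only through its 24 h libraries, as above.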

How the results depend on the processing

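No member changed direction under a setting that called it, and of 86 called member values in the 7 comparisons 48 kept their call under every setting run. With DESeq2 the members called were 8 after knockdown (13 with edgeR), 1 at 1 h (4 with edgeR), 9 at 24 h (14 with edgeR) and 10 in R219S cells (15 with edgeR). Over all genes DESeq2 called 3536, 2058, 7122 and 6806, against 4506, 3850, 9195 and 8688 with edgeR. DESeq2 gave an adjusted p to 20 members after knockdown and 20 at 1 h, against 27 and 28 with edgeR. Leaving out 1 library at a time moved the number of calls both among members and among all genes tested. After knockdown both were fewest without shCtrl replicate 2. Where a group was left with 1 library, that library was assumed to vary like the others. The labels do not say that replicate numbers pair libraries, and deviations of same-numbered libraries correlated at -0.0319 to 0.0411 across genes. A fit with the replicate number as a block called 12 members after knockdown, 4 at 1 h, 17 at 24 h and 15 in R219S cells. Over all genes it called 4412, 3909, 9868 and 8441, against 4506, 3850, 9195 and 8688 in the main fit. It called 14 members for 24 h against 1 h, beside 9296 of all genes (9159 in the main fit). For the 24 h change against the knockdown change it called 9, beside 4539 of all genes (4712 in the main fit). For the R219S change against the 24 h change it called 16, beside 7673 of all genes (7535 in the main fit). Depth limits the members under 0.5 CPM, whose libraries hold few counts.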
